A study of Mus musculus with 6 samples.

Results

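Well-expressed genes of the Zfp series of zinc finger genes were described in mouse embryonic stem (ES) cells before and after 3 days of differentiation. They are the genes whose symbol on the array platform is Zfp followed by digits alone, without Zfp42, which is a marker of the ES state. Each gene was represented by its probe set of highest mean over the 6 arrays and was kept if that probe set had a mean of at least 7 on the log2 scale in the differentiating or in the undifferentiated group. The rule kept 151 of the 304 Zfp genes measured. The array measured 18193 genes in all, and 8713 of them meet the same level rule. A level of 7 lies at percentile 67.7 of the mean signal of all probe sets. The genes were therefore chosen on measured values, and the level is no finding.

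All samples came from E14TG2a, a line of mouse ES cells that stays undifferentiated while leukaemia inhibitory factor (LIF) is present. The undifferentiated group held 3 samples grown with 1000 units of LIF per ml, from which cells negative for 5T4, a glycoprotein of the cell surface, were sorted. The differentiating group held 3 samples of the same line that went 3 days without LIF and were sorted as 5T4-positive. Both groups grew on gelatin, and both passed through antibody staining and cell sorting. Loss of LIF and 5T4 status changed together, so their parts cannot be told apart, and 1 cell line limits what the samples stand for. No source used here says that the replicates were separate cultures, and the p-values cover the spread between these arrays alone, which may be technical. In sorted pools, fewer cells with a transcript and less transcript per cell cannot be told apart either. Values are log2 RMA signals, the log2 fold change is differentiating minus undifferentiated, and p-values are those of limma with Benjamini-Hochberg adjustment over 45037 probe sets, where a gene passes at an adjusted p under 0.1.

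C2H2 zinc finger proteins form the most numerous family of DNA-binding proteins in mammals, and each finger reads a few bases of DNA. Many carry a KRAB domain, which binds the corepressor Trim28 and through it brings the methyltransferase Setdb1 and repressive histone H3K9 methylation to the bound site. In ES cells such proteins are known for silencing retroviral elements and for protecting imprinted regions. Their genes often lie side by side in clusters of related copies, so that a probe can also read a relative. Other genes with a Zfp name encode RNA-binding, ribosomal or ubiquitin ligase proteins and share only a zinc finger.

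The labelled cell type was checked first. Pou5f1, Sox2 and Nanog, core factors of pluripotency, were at 11.01 or above on all 6 arrays. Even so, Pou5f1 fell by 0.68 (adjusted p = 0.0859) and Sox2 by 0.96 (adjusted p = 0.0897) in differentiating cells. Nanog differed by -0.50 and did not pass (adjusted p = 0.345). Klf4, another pluripotency factor, measured 8.17, 6.24 and 5.50 on differentiating replicates 1 to 3 and 10.87, 10.33 and 11.32 on the undifferentiated arrays, and it fell by 4.20 (adjusted p = 0.0669). Fgf5, a gene of the primed epiblast, was higher in differentiating cells by 1.92 (adjusted p = 0.0734). Tpbg, which encodes 5T4, was at 6.71, 7.52 and 7.97 against 5.94, 6.76 and 5.68 (adjusted p = 0.221). None of 8 fibroblast, 5 blood and endothelial and 6 extraembryonic endoderm markers passed in limma, 2, 1 and 0 of them had an unadjusted p under 0.05, as did 17.2% of all genes, and 0 of the 6 endoderm markers reached 7 on any array. The summed fibroblast signal was 10.20, 9.09 and 9.36 on the differentiating arrays and 8.92, 9.65 and 8.68 on the undifferentiated arrays, and the 2 ranges overlapped. Differentiating replicate 1 stood apart, with the highest Klf4 of its group and a lower quartile of 4.26 over all probe sets against 4.07 to 4.10 on the other arrays.

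Of the 151 Zfp genes, 4 passed the test. Zfp296 and Zfp59 were lower in differentiating cells, and Zfp608 and Zfp362 were higher. Over all genes, 1.45% were lower and 0.797% higher by the same test, and over the genes at the level rule 2.61% were lower and 1.08% higher. The median log2 fold change was -0.10 over the Zfp genes and -0.06 over the genes at the level rule, and 114 of the 151 differed by less than 0.5 either way. An unadjusted p under 0.05 was found for 36 of the 151 and for 25.8% of the genes at the level rule. Since 23 genes entered through 1 group only and so had to differ, nothing is read from these counts. The log2 fold changes ran from -2.14 to 2.42.

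**Figure D1:**
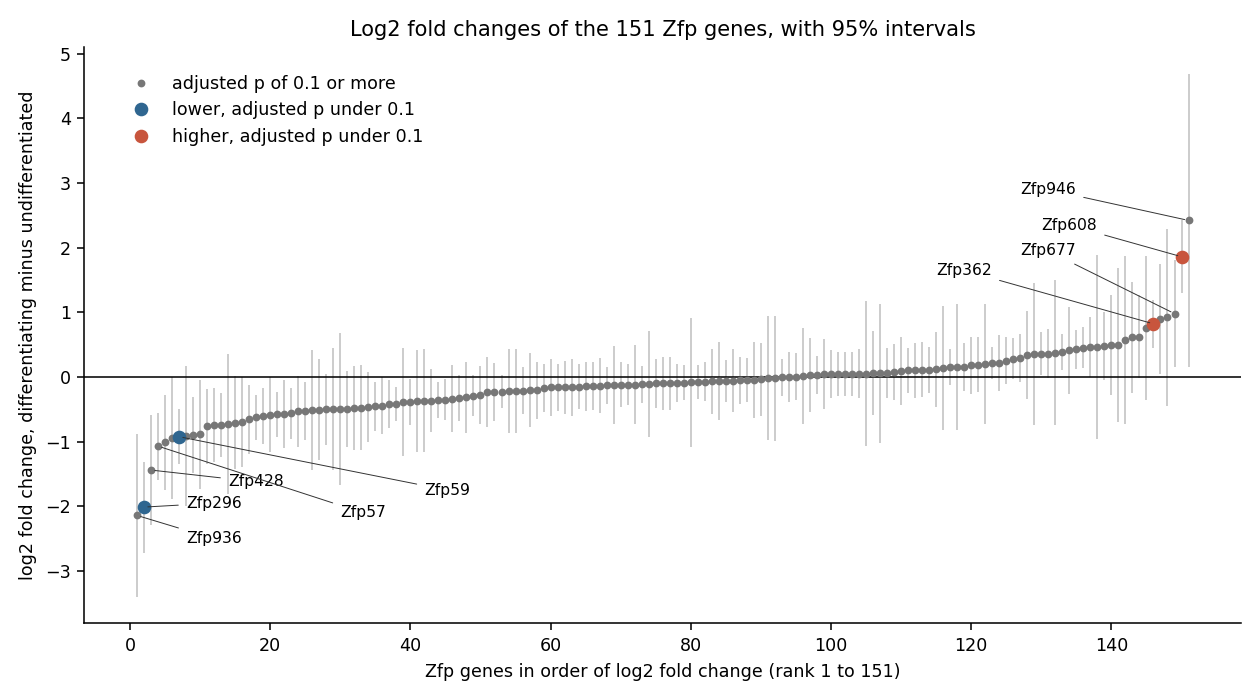
Log2 fold change (y axis) of each of the 151 Zfp genes, placed by rank (x axis), with points for the estimates and grey lines for their unadjusted 95% intervals. Blue and red points are the 2 genes that were lower and the 2 that were higher at an adjusted p under 0.1, and the widest intervals belong to genes such as Zfp946 whose replicates disagree.

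Zfp296, a nuclear protein of pluripotent cells that takes part in reprogramming, measured 7.47, 6.54 and 6.33 on the differentiating arrays and 8.76, 8.61 and 9.01 on the undifferentiated arrays. Every undifferentiated array was above every differentiating array, and differentiating replicate 1 was the highest of its group, as it was for Klf4. The gene fell by 2.01 (standard error 0.30, 4.03-fold, adjusted p = 0.0592). It entered the set through the undifferentiated group only, although its mean over all 6 arrays was 7.79. Without differentiating replicate 1 the log2 fold change was -2.36 (adjusted p = 0.022). What sets that array apart was not tested.

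Zfp59 was the only gene of the 4 with a mean above 7 in both groups. Its values were 7.47, 7.42 and 7.43 against 8.23, 8.10 and 8.75, and the groups did not overlap. It fell by 0.92 (standard error 0.18, 1.90-fold, adjusted p = 0.0967). The probe set carries the suffix of probes that can match more than 1 transcript, and the other Zfp59 probe set was at 3.39 to 3.72 on every array, with a log2 fold change of -0.11.

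Zfp608, a relative of the transcriptional regulator Zfp609 that is known for repressing the Rag genes in thymocytes, measured 7.42, 8.03 and 7.97 on the differentiating arrays and 5.66, 6.35 and 5.83 on the undifferentiated arrays. It was higher by 1.86 (standard error 0.24, 3.63-fold, adjusted p = 0.0483), with no overlap. A second Zfp608 probe set gave 7.41, 7.63 and 7.84 against 5.54, 6.27 and 5.68, a log2 fold change of 1.79 (adjusted p = 0.0445). Both probe sets had high values in differentiating cells alone, and the gene entered through that group only, since its mean over the 6 arrays was 6.87.

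Zfp362, a paralogue of the DNA-binding protein Zfp384, was at 7.50, 7.72 and 7.88 in differentiating cells and at 6.72, 7.11 and 6.80 in undifferentiated cells. It was higher by 0.82 (standard error 0.16, 1.77-fold, adjusted p = 0.0946). Zfp384 itself measured 8.67, 8.63 and 8.64 against 8.46, 8.89 and 9.02, a difference of -0.15 (adjusted p = 0.752). All 4 calls were lost when any 1 of 3 arrays was left out. Leaving out differentiating replicate 2, differentiating replicate 3 or undifferentiated replicate 3 took the adjusted p of Zfp608 to 0.283, 0.227 and 0.208 and that of Zfp296 to 0.303, 0.240 and 0.259. Without the same arrays it was 0.374, 0.325 and 0.346 for Zfp362 and 0.377, 0.326 and 0.248 for Zfp59, and 0, 3 and 1 of the 8713 genes at the level rule passed. Zfp59 also lost its call without differentiating replicate 1 (adjusted p = 0.144) or undifferentiated replicate 1 (adjusted p = 0.111), and Zfp362 without the latter (adjusted p = 0.127).

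**Figure D2:**
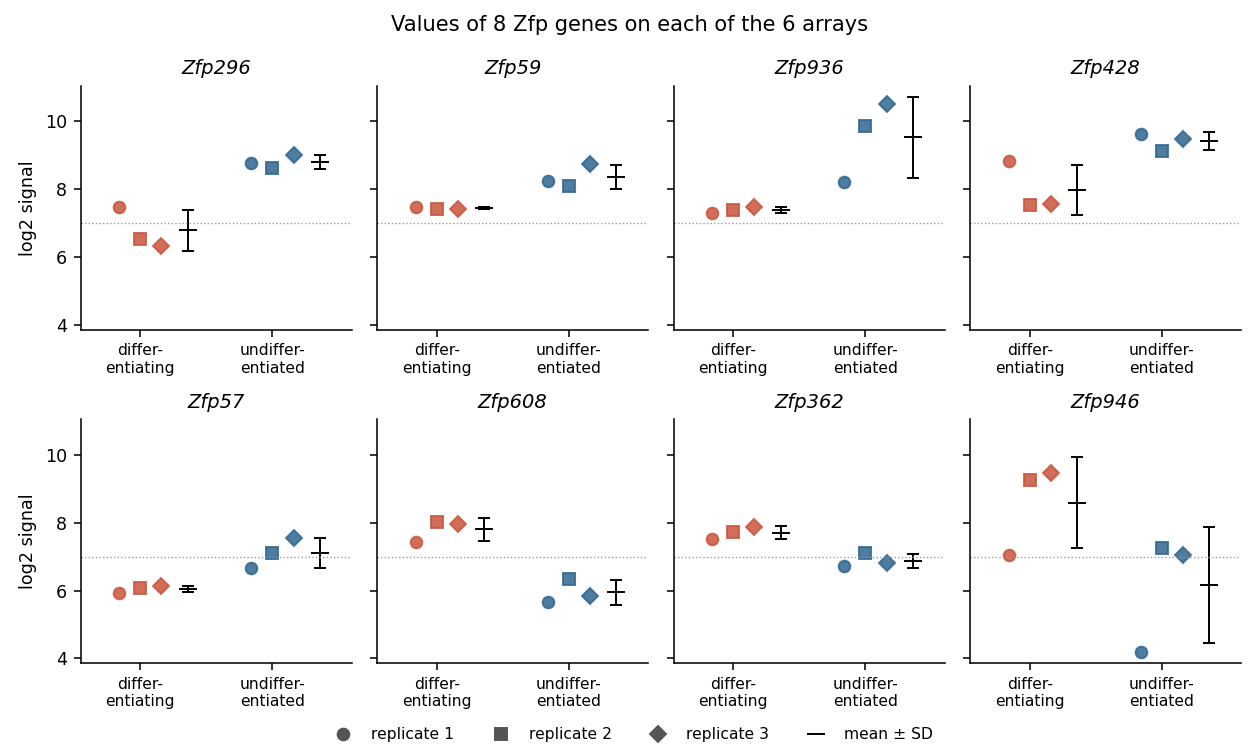
Log2 signal (y axis) of 8 Zfp genes on the 6 arrays, grouped by condition (x axis), with marker shape for the replicate, a black bar with whiskers for the mean ± SD (n = 3) and a dotted line at 7. In Zfp296 and Zfp608 the 2 groups are apart on every array, and in Zfp936, Zfp57 and Zfp946 the circle of undifferentiated replicate 1 lies below the other undifferentiated values.

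The other 147 genes did not pass, and 5 of them differed by at least 1 on the log2 scale. Their unadjusted 95% intervals lay within 1 either way for 94 genes and reached beyond 1 for 53, so many of them leave a change of that size possible. Zfp936 had the largest difference on the lower side, with 7.29, 7.37 and 7.48 in differentiating cells and 8.20, 9.84 and 10.52 in undifferentiated cells. The groups did not overlap, but the undifferentiated values were spread over more than 2 log2 units. Its difference was -2.14 on the log2 scale (interval -3.40 to -0.88, adjusted p = 0.152), and without undifferentiated replicate 1 it was -2.80 (adjusted p = 0.0236). Zfp428 was at 8.83, 7.52 and 7.56 against 9.62, 9.11 and 9.49. Its log2 fold change was -1.44 (adjusted p = 0.154), and differentiating replicate 1 was again nearest to the undifferentiated group. Without that array the value was -1.87 (adjusted p = 0.0319).

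The RefSeq promoters of Zfp296 and Zfp428 are shown because both hold the octamer ATGCAAAT, the sequence read by Oct4 and other POU factors. A promoter here runs from 250 bases before to 50 bases after the annotated start in assembly GRCm38.p6. The octamer, in capitals, was searched on both strands after the changes were known, and stands in 1.74% of 32851 promoters and in 4 of 158 promoters of 124 Zfp genes with an entry, those of Zfp207, Zfp263, Zfp296 and Zfp428. Zfp296 holds it once, on the opposite strand, at bases 140 to 147 of the window at chr7:19577037-19577336 (plus strand). Zfp428 holds it in 2 copies between bases 126 and 187 of the window at chr7:24506837-24507136 (plus strand).
Zfp296: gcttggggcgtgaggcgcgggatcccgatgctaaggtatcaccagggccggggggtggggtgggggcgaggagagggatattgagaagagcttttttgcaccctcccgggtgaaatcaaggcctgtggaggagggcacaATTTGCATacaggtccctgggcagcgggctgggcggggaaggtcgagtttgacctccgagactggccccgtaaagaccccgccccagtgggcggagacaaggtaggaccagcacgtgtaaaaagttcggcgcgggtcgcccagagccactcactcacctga
Zfp428: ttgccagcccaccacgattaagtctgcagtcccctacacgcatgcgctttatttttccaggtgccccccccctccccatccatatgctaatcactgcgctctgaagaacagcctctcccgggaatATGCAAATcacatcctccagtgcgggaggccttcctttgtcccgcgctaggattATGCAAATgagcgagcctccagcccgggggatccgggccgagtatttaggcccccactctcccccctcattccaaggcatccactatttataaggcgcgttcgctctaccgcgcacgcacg
The copies are a description of the letters and not evidence that a factor is bound. Zfp207 measured 12.22, 12.23 and 12.40 against 11.90, 12.27 and 12.34, and Zfp263 was at 7.31, 7.83 and 7.78 against 8.09, 8.08 and 8.11. These 2 of the 4 genes with an octamer differed by less than 0.5. Zfp263, like Zfp296 and Zfp428, was lower with no overlap of the groups, as were 20.8% of the genes at the level rule. Of the 2 other motifs searched, TTCNNNGAA, the element read by STAT proteins downstream of LIF, stands in 8.30% of all promoters and in 20 of the 158. It was found in none of the 10 promoters of the 8 genes with the largest decreases nor in the 7 of the 8 genes with the largest increases. GGGCGG, the GC box, stands in 35.7% of all promoters and in 86 of the 158, in 2 of the same 10 and in 6 of the same 7. Zfp362 and Zfp608 had no promoter sequence used here.

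The following 5 genes, known for silencing imprinted or retroviral sequence, were picked by name and stand for no group. All but Zfp932 belong to the list of regulators described next. Zfp57, which keeps DNA methylation at imprinted regions together with Trim28, measured 5.94, 6.07 and 6.12 in differentiating cells and 6.67, 7.11 and 7.54 in undifferentiated cells. The groups did not overlap, and the log2 fold change was -1.07 (interval -1.59 to -0.55, adjusted p = 0.106). Its value without undifferentiated replicate 1 was -1.29 (adjusted p = 0.0506). Zfp445, the other known keeper of imprints, was at 9.93, 10.84 and 10.997 against 9.65, 10.73 and 10.80, so that the groups overlapped and replicate 1 was low in both. Zfp809, which silences retroviruses through their primer binding site, measured 7.84, 7.80 and 8.42 against 7.58, 8.96 and 8.99. Zfp932, which binds endogenous retroviruses, measured 7.51, 8.33 and 8.44 against 7.81, 9.17 and 9.46. In both genes the lowest undifferentiated value was that of replicate 1, and the log2 fold changes of -0.49 and -0.72 had adjusted p-values of 0.650 and 0.557. Zfp568, which represses a placental promoter of Igf2, stayed at 11.04, 11.02 and 11.04 against 10.44, 11.39 and 11.17, a difference of 0.03 (interval -0.53 to 0.60).

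Among 14 listed regulators of ES cells, embryo and lineage, 1 passed, which was Zfp296, and the median log2 fold change was -0.14. Over the genes at the level rule, 2.61% were lower and 1.08% higher. An unadjusted p under 0.05 was found for 3 of the 14 and for 25.8% of the genes at the level rule. Zfp819, a KRAB protein of pluripotent cells, was at 7.81, 7.01 and 6.66 against 7.20, 8.17 and 8.84 (log2 fold change -0.91, adjusted p = 0.455). Zfp423, a cofactor of BMP-activated Smad proteins, was lower on every differentiating array, at 6.87, 7.39 and 7.59 against 7.81, 8.20 and 8.05 (log2 fold change -0.74, adjusted p = 0.196). Zfp57, Zfp445, Zfp568, Zfp809 and Zfp384, given above, belong to the same list. Zfp281, which limits Nanog expression in ES cells, differed by 0.12, its relative Zfp148 by -0.12, Zfp462, a partner of H3K9 methyltransferases, by 0.14, and Zfp217, a partner of the histone demethylase Lsd1, by 0.11. Zfp105 and Zfp219 differed by -0.23 and -0.13.

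The 10 chromatin complex partners had no gene that passed, 3 with an unadjusted p under 0.05 (25.8% of the genes at the level rule) and a median of -0.03. Zfp687 belongs with Zfp592 and Zfp532 to a complex with Zmynd8, and none of the 3 passed. Zfp687 measured 8.01, 8.14 and 7.996 against 7.81, 7.51 and 7.47 (log2 fold change 0.45, adjusted p = 0.206). Zfp592 differed by 0.05 and Zfp532 by -0.48, and the differences among the 3 were not tested. Zfp110 and Zfp369, related proteins that bind the neurotrophin receptor, differed by -0.62 (adjusted p = 0.135) and 0.01. Zfp644, a partner of the methyltransferase G9a, measured 9.88, 10.61 and 10.71 against 8.55, 10.19 and 10.18. Its log2 fold change of 0.76 (interval -0.36 to 1.87) was 0.21 without undifferentiated replicate 1 and 0.47 with both replicate 1 arrays left out (adjusted p = 0.0858). Zfp618, a partner of Uhrf2, was at 6.87, 7.10 and 7.11 against 5.39, 6.93 and 6.07 (0.90, adjusted p = 0.338), and without undifferentiated replicate 2 it was at 1.30 (adjusted p = 0.0619). Zfp410, an activator of Chd4, differed by -0.16, Zfp131 by -0.47 and Zfp335, found with a histone H3K4 methyltransferase, by -0.08.

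Of 11 genes of RNA, ribosome and splicing proteins 0 passed and 2 had an unadjusted p under 0.05, against 25.8% of the genes at the level rule. Their median was -0.14 and their range -0.57 to 0.30. Zfp622, a ribosome assembly factor, measured 12.19, 12.10 and 11.998 against 12.37, 12.31 and 12.30. The groups did not overlap, and they differed by -0.23 (interval -0.48 to 0.03). Zfp106, an RNA-binding protein, was at 11.63, 11.76 and 11.74 against 11.85, 11.59 and 11.57. Zfp207, a spindle and splicing protein given above, had the highest mean of all 151 genes, 12.23, and a difference of 0.11 (interval -0.24 to 0.47). Zfp593, a ribosome biogenesis protein, had the largest difference of the list, -0.57 (adjusted p = 0.331). Zfp598, the ligase that marks collided ribosomes, differed by -0.35 with groups apart (adjusted p = 0.251), and Zfp36, which speeds the decay of mRNAs with AU-rich elements, by 0.30 (adjusted p = 0.470). The double-stranded RNA-binding protein Zfp346 differed by -0.46, and Zfp326, Zfp330, Zfp638 and Zfp830 by -0.22, -0.14, -0.08 and -0.07.

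In the group of ligases and other proteins, 0 of 6 passed, 0 had an unadjusted p under 0.05, and the median was 0.05. Zfp185, a LIM domain protein of the actin cytoskeleton, measured 8.64, 9.36 and 9.62 against 8.57, 8.86 and 8.31 (log2 fold change 0.63, adjusted p = 0.379). Its lowest differentiating value was that of replicate 1, below the highest undifferentiated value. Another Zfp185 probe set gave 0.65 with no overlap (adjusted p = 0.166). The ubiquitin ligase Zfp91 differed by 0.18, the SUMO ligase Zfp451 by -0.27, and Zfp318, Zfp292 and Zfp365 by 0.15, -0.13 and -0.06. Another Zfp91 probe set, with a mean of 8.11, went the other way, by -0.48 with groups apart (adjusted p = 0.367). Dimmer Zfp91 probe sets gave 0.03 and -0.05. The remaining 110 genes had no listed role and spanned the whole range.

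**Figure D3:**
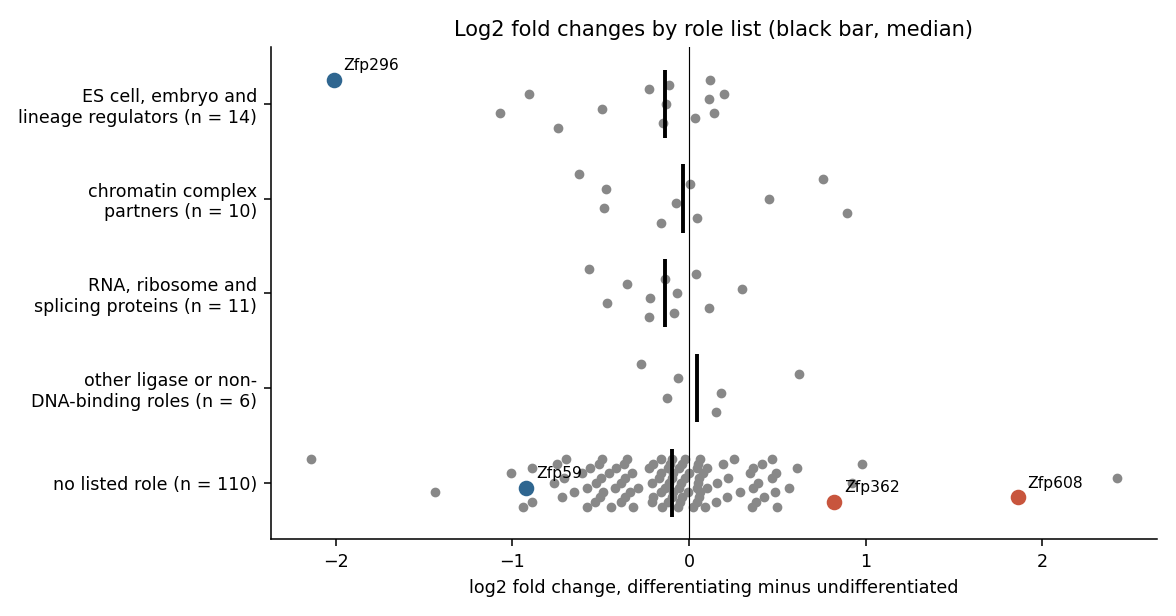
Log2 fold change (x axis) of the 151 Zfp genes by role list (y axis, with the number of genes), with a black bar at each median and the 4 genes that passed in blue or red and named. The medians of the 5 rows lie between -0.14 and 0.05, and Zfp296 is the only gene with a listed role that passed.

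Replicate 1 was low in both groups across the Zfp genes. Its difference from the mean of replicates 2 and 3 had a median of -0.29 in differentiating and -0.32 in undifferentiated cells over the 151 genes, against -0.09 and 0.03 over all genes at the level rule. Replicate 1 was the lowest array of both groups for 76 of the 151 genes, where 24.4% of the genes at the level rule had that order. Across the 151 genes, the 2 differences correlated with r = 0.41, against r = 0.21 across the genes at the level rule, where genes of an array share its hybridisation and are not independent. Within the 128 genes kept through both groups r was 0.28, and replicate 1 was the lowest of both groups for 60. Across the 95 genes that lie in none of the runs described below, r was 0.30. It was 0.80 in the 11 genes kept through the differentiating group only and 0.13 in the 12 kept through the undifferentiated group only. The median signal of the Zfp genes was 7.83 on differentiating replicate 1 and 8.16 and 8.15 on the other 2, and 8.16 on undifferentiated replicate 1 against 8.22 and 8.41. The 153 Zfp genes below the level, which the rule left out, gave medians of -0.15 and -0.25. The labels name no batch, so what sets these arrays apart was not tested.

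**Figure D4:**
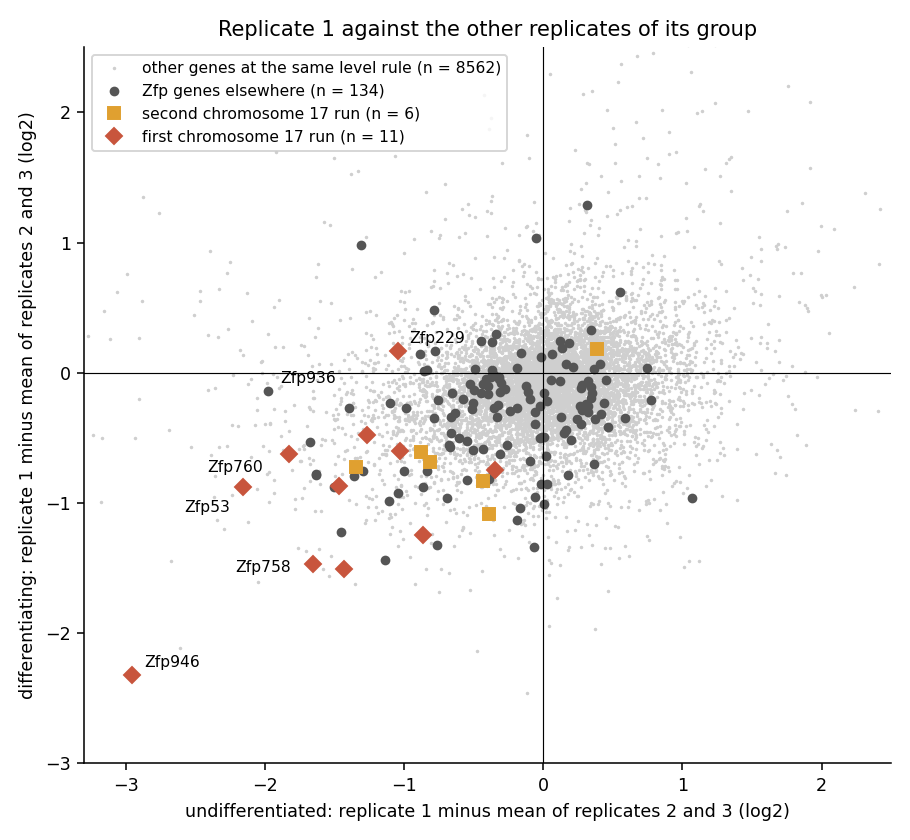
Replicate 1 minus the mean of replicates 2 and 3 (log2), in undifferentiated (x axis) and differentiating cells (y axis), for the Zfp genes and in grey for 8562 other genes at the level rule, of which 21 lie outside the axes. The genes of the first chromosome 17 run lie to the lower left, with Zfp946 at -2.95 and -2.32, while Zfp229 lies above 0 in differentiating cells.

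The low values of replicate 1 were large in a group of neighbours on chromosome 17. When members whose starts in GRCm38.p6 lie at most 1 Mb apart were joined, 56 of the 151 genes fell into 12 runs of 3 or more. The runs were formed after the values had been seen and are not tested. One run of 11 genes holds Zfp677, Zfp51, Zfp53, Zfp948, Zfp760, Zfp229, Zfp820, Zfp942, Zfp758, Zfp946 and Zfp945. Undifferentiated replicate 1 was the lowest of its group in all 11 genes and differentiating replicate 1 in 10, all but Zfp229. The median difference of replicate 1 was -0.87 in differentiating and -1.43 in undifferentiated cells. Zfp53, Zfp942, Zfp758, Zfp677 and Zfp946 entered the set through the differentiating group only, and Zfp229 through the undifferentiated group only. The part of the level rule in these medians was not tested. A second run on the same chromosome, Zfp871, Zfp799, Zfp472, Zfp763, Zfp101 and Zfp414, had medians of -0.71 and -0.62. In a run on chromosome 6, that of Zfp212, Zfp777 and Zfp746, they were -0.24 and 0.31, and over the 95 genes in no run they were -0.25 and -0.24.

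Zfp946 was the most extreme gene, at 7.04, 9.25 and 9.46 in differentiating cells and at 4.19, 7.24 and 7.05 in undifferentiated cells. Replicate 1 was more than 2 log2 units below the others in both groups, and the groups overlapped only through it. The log2 fold change of 2.42 was the largest of the set, but its interval ran from 0.15 to 4.69 and it did not pass (adjusted p = 0.335). With both replicate 1 arrays left out, a setting added after the data had been seen, it was 2.21 (adjusted p = 0.00655). Zfp758, its neighbour, measured 6.59, 7.90 and 8.22 against 5.55, 7.33 and 7.08 (0.92, adjusted p = 0.550, and 0.86 without the replicate 1 arrays, adjusted p = 0.0559). Zfp677 was at 7.48, 8.01 and 8.15 against 6.21, 7.57 and 6.91 (0.98, adjusted p = 0.288). Not all genes of the run were alike. Zfp229 ran the other way, at 6.37, 6.04 and 6.37 against 6.57, 7.40 and 7.84 (-1.01, adjusted p = 0.226, and -1.41 without the replicate 1 arrays, adjusted p = 0.0286). In Zfp53 undifferentiated replicate 1 was at 5.41 and the 5 other arrays lay between 6.74 and 7.67.

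**Figure D5:**
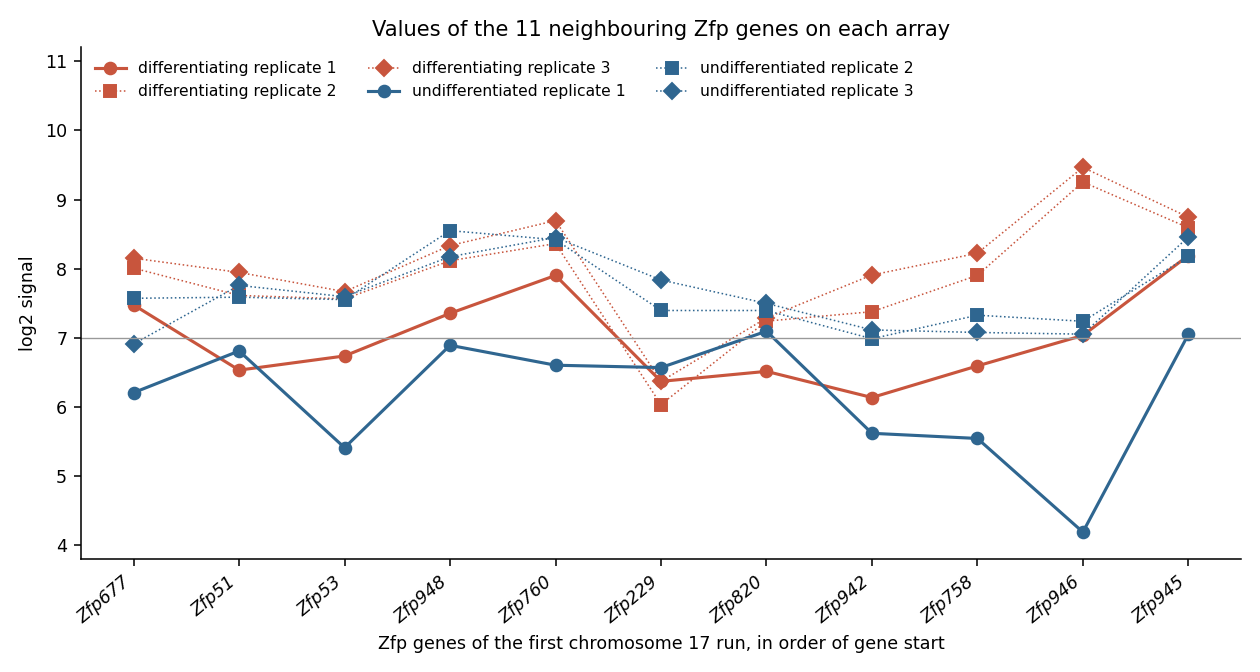
Log2 signal (y axis) of the 11 neighbouring Zfp genes of chromosome 17, in order of gene start (x axis), with 1 line per array, red for differentiating and blue for undifferentiated, solid for replicate 1 and dotted for replicates 2 and 3, and a grey line at 7. The solid blue line lies below the dotted blue lines at all 11 genes, and at Zfp677, Zfp942, Zfp758, Zfp946 and Zfp945 the dotted red lines lie above the dotted blue ones.

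The promoters of Zfp942, Zfp758 and Zfp946 are given because these 3 of the run share a stretch of 16 bases. In all 3, replicates 2 and 3 of the differentiating group were above every undifferentiated array. However, 5 of the 11 genes of the run had that order, and Zfp677 and Zfp945, the other 2, do not hold the stretch shown here. Zfp942, Zfp758, Zfp946 and Zfp677 entered the set through the differentiating group only. Their higher differentiating means follow from the rule, and nothing is read from the order. Zfp942 measured 6.14, 7.38 and 7.91 against 5.62, 6.99 and 7.11 (log2 fold change 0.57, adjusted p = 0.713). Capitals mark a stretch of 16 bases found in Zfp942 and Zfp946 in the same direction and in Zfp758 on the opposite strand. The windows are chr17:21962415-21962714 (minus strand), chr17:22361213-22361512 (plus strand) and chr17:22423952-22424251 (plus strand) in GRCm38.p6.
Zfp942: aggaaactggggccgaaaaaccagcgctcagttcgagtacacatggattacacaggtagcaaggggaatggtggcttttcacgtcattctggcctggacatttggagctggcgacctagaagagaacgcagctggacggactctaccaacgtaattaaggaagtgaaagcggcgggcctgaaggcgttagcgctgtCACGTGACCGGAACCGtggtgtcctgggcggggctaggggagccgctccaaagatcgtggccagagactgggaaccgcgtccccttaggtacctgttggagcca
Zfp758: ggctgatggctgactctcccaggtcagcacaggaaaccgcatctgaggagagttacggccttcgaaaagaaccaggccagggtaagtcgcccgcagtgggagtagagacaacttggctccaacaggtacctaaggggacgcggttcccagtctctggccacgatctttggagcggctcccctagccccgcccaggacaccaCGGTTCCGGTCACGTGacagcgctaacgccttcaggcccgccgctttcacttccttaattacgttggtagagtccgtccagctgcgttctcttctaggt
Zfp946: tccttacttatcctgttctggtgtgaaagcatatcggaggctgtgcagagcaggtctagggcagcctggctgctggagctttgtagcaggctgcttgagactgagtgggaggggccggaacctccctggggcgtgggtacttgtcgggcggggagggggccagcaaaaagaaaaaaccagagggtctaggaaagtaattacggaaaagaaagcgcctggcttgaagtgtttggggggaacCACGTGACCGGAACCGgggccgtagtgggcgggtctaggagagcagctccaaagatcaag
The stretch was found in 5 of 32851 promoter windows, and all 5 belong to Zfp genes of this neighbourhood. The other 2 are those of Zfp943 and Zfp944, which start head to head with Zfp942 and Zfp758, at 95 and 63 bases from them, so that the windows of each pair cover the same DNA in part. Zfp942 and Zfp758 share a longer stretch of 187 bases on opposite strands. Other pairs of the run share other sequence, Zfp820 and Zfp946 a stretch of 17 bases. Zfp53 and Zfp948 share 14 bases, as do Zfp760 and Zfp946. Zfp820, Zfp53, Zfp948 and Zfp760 did not have the array order given above. Zfp943 and Zfp944 were below the level rule, at 5.28, 6.19 and 6.05 against 5.10, 5.80 and 6.05 and at 6.35, 7.07 and 7.09 against 6.04, 6.40 and 6.74. In both the lowest array of each group was replicate 1, as in their partners. Related copies can also be read by the same probes, and that was not tested.

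A run on chromosome 7, that of Zfp141, Zfp975, Zfp936, Zfp715 and Zfp819, held only log2 fold changes below 0, from -2.14 to -0.58. None of the 5 passed. Zfp141 entered the set through the undifferentiated group only, so its direction follows from the rule. Of the 8713 genes at the level rule, 4983 had a log2 fold change below 0, and nothing is read from the shared direction. Zfp715 was at 8.03, 8.08 and 8.07 against 8.42, 8.57 and 8.91, with no overlap (-0.58, adjusted p = 0.159). Zfp975 was at 7.05, 7.72 and 8.23 against 7.91, 8.70 and 9.21, where the groups overlapped (-0.94, adjusted p = 0.367). On chromosome 4, the neighbours Zfp991, Zfp982 and Zfp979 had means from 9.37 to 10.77 and log2 fold changes of -0.53, -0.49 and -0.76. Zfp982, the brightest, measured 9.71, 10.80 and 11.06 against 10.04, 11.53 and 11.47, with replicate 1 the lowest of both groups.

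Leaving out both replicate 1 arrays raised the number of Zfp genes that passed to 11 higher and 23 lower. The same setting called 7.15% of the genes at the level rule higher and 8.49% lower, and nothing is read from the Zfp counts beyond this. Among the 34 genes were Zfp296, Zfp59, Zfp608 and Zfp362, and also Zfp936, Zfp428, Zfp57, Zfp229, Zfp809, Zfp932, Zfp979 and Zfp946. Each group then held 2 samples. Undifferentiated replicate 1 alone, when left out, gave 6 lower genes, which were Zfp110, Zfp961, Zfp936, Zfp296, Zfp229 and Zfp57, and 1 higher, Zfp608, where 2.42% of the genes at the level rule were lower and 0.987% higher. Differentiating replicate 1 alone, when left out, gave 2 lower genes, Zfp428 and Zfp296, and 3 higher, Zfp334, Zfp362 and Zfp608, where 2.85% of the genes at the level rule were lower and 1.91% higher. Groups that did not overlap on any array were found for 27 Zfp genes with lower and 12 with higher values in differentiating cells, where the genes at the level rule gave 20.8% and 10.9%.

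The 23 genes kept through 1 group only are described apart, since their direction follows from the rule. Through the undifferentiated group alone came Zfp296, Zfp57, Zfp229, Zfp560, Zfp74, Zfp141, Zfp184, Zfp958, Zfp846, Zfp689, Zfp90 and Zfp365, with log2 fold changes from -2.01 to -0.06. Zfp846 was at 6.68, 6.85 and 6.72 against 7.09, 7.21 and 7.21 (-0.42, adjusted p = 0.173), and a second probe set gave -0.68 (adjusted p = 0.0950). Through the differentiating group alone came Zfp251, Zfp37, Zfp53, Zfp30, Zfp942, Zfp362, Zfp618, Zfp758, Zfp677, Zfp608 and Zfp946, with values from 0.36 to 2.42. In 10 of these 11, all but Zfp30, replicate 1 was the lowest of both groups, where 24.4% of the genes at the level rule had that order. Just inside the threshold, the higher group mean was 7.01 for Zfp90, 7.03 for Zfp365 and 7.03 for Zfp618. Just outside it was 6.96 for Zfp397 and 6.97 for both Zfp956 and Zfp654. Within the 128 genes with both means at 7 or more, 1 passed, which was Zfp59.

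The 5 with the highest mean were Zfp207, Zfp622, Zfp106, Zfp568 and Zfp982, at means from 10.77 to 12.23, and the first 4 differed by -0.23 to 0.11.

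The proteins that KRAB zinc fingers work through were measured on the same arrays. Of 15 measured genes of the KRAB corepressor and heterochromatin list 0 passed, and 7 had an unadjusted p under 0.05, where all genes gave 17.2% and the genes at the level rule 25.8%. Trim28, the corepressor itself, measured 13.01, 12.77 and 12.65 against 13.06, 13.16 and 13.28 (-0.36, adjusted p = 0.308). The largest difference was that of Pphln1, a subunit of the HUSH silencing complex, at 10.19, 11.12 and 11.28 against 8.61, 9.62 and 9.31 (1.68, adjusted p = 0.113). Daxx, a histone chaperone, differed by -0.50 (adjusted p = 0.167). In the NuRD remodelling complex 1 of 13 genes passed, where 1.45% of all genes were lower and 0.797% higher. An unadjusted p under 0.05 was found for 1 of the 13, beside the same 17.2% and 25.8%. Mbd3, its methyl-binding domain subunit, measured 8.41, 8.34 and 8.47 against 9.12, 9.02 and 9.31 and fell by 0.74 (adjusted p = 0.0736).

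Of 5 measured H3K9 methyltransferase genes and partners 0 passed, and 1 had an unadjusted p under 0.05, where all genes gave 17.2%. Ehmt2, which encodes G9a, was at 9.57, 9.46 and 9.34 against 10.78, 10.30 and 10.10, with no overlap (-0.93, adjusted p = 0.105), and its partner Ehmt1 differed by 0.26 (adjusted p = 0.505). Among 17 genes of mRNA decay, partners of Zfp36, 0 passed and 5 had an unadjusted p under 0.05, beside 25.8% of the genes at the level rule. Zfp36l1, a relative of Zfp36, was at 9.41, 9.32 and 9.80 against 10.16, 10.32 and 10.28 (-0.75, adjusted p = 0.107), and Cnot10, of the deadenylase complex, differed by -0.64 (adjusted p = 0.159).

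Other zinc finger families were read at the same level rule. Of 23 Zbtb genes, which pair zinc fingers with a BTB domain, 2 were lower and 0 higher, with a median of -0.23. Over the genes at the level rule, 2.61% were lower and 1.08% higher. An unadjusted p under 0.05 was found for 5 of the 23, against 25.8% of the genes at the level rule. Zbtb32 measured 6.27, 6.19 and 6.22 against 7.83, 7.09 and 7.16 and fell by 1.13 (adjusted p = 0.0893). Its means were 6.23 and 7.36, so it met the level through the undifferentiated group only and its direction follows from the rule. Zbtb43 was at 7.89, 8.06 and 7.84 against 9.12, 8.61 and 9.16 and fell by 1.03 (adjusted p = 0.0789). None of 12 Zscan and Zkscan genes and none of 16 Zfp genes with a letter after the number passed, with medians of -0.13 and -0.04, and 3 and 5 of them had an unadjusted p under 0.05, as did 25.8% of all genes at the level rule. Replicate 1 was the lowest of both groups in 11 of the 23, 5 of the 12 and 11 of the 16 genes, and in 24.4% of the genes at the level rule. Differences between these families and the Zfp genes were not tested.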

How the data were processed

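The deposited table held log2 signals that the authors made from 6 Affymetrix mouse arrays by robust multi-array averaging (RMA) in the R package affy (version: not given in the sources used here). Values were used as deposited. RMA pulls dim signals together, so differences of dim genes are understated. Of 45101 probe sets, 64 controls were left out, and 34945 of the other 45037 had 1 gene symbol, 932 several and 9160 none. Groups came from the sample labels. Tests were made with limma 3.58.1 in R 4.3.3 without a replicate term and were tested on simulated data, and pandas 2.3.3 and numpy 2.4.6 in Python 3.11.15 made the tables. All 151 genes matched a RefSeq gene identifier. Arrays give no read depth, and their number limits the precision.

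The members and gene lists were chosen with earlier results of these data known. The genes named are those that passed, the 8 largest increases and decreases, the genes of the role lists, the 5 brightest, those nearest to the level of 7 or kept through 1 group only, and from each partner list those that passed or the 2 with the largest change. Other genes, those of the runs, other families, motifs and markers, were named after values were seen. Alternatives covered the replicate number as a block, normalization, variance model, array weights, filters, thresholds, probe set choice and single arrays left out. Protein features were not analysed here.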

Additional observations from a re-analysis of the deposited data

How the results depend on the processing

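In limma, 2 Zfp genes were higher and 2 lower, of which 1 and 1 changed by at least 1 on the log2 scale, and the median log2 fold change was -0.10. With the replicate number as a replicate block the counts were 2 higher and 3 lower, of which 2 and 2 changed by at least 1. The block called 1.25% of the genes at the level rule higher and 2.26% lower. Zfp946, Zfp975 and Zfp57 entered while Zfp59 (adjusted p = 0.122) and Zfp362 (adjusted p = 0.110) left. The numbers were not taken to pair the samples, since the deviations of same-numbered arrays correlated at 0.21, -0.11 and 0.11 over 45037 probe sets and not every sample correlated best with its own number. Without the dimmer probe sets, 2 lower genes changed by at least 1, as they did with the mean of all probe sets of a gene. Leaving out the dimmer probe sets called 1.54% of the genes at the level rule higher and 3.43% lower. A second quantile normalization left 1 lower, median centring 1 higher, and a trended robust variance 1 higher and 1 lower. Array weights called 14 higher and 27 lower, with 2 and 8 at a change of at least 1, and also 13.4% and 15.6% of the genes at the level rule. With both replicate 1 arrays left out, 11 were higher and 23 lower. At an adjusted p under 0.05, 1 was higher and 0 lower, so 0 lower at a change of at least 1. With a mean over 6 arrays of at least 7, 138 genes remained, with 1 higher, and 0 higher at a change of at least 1. With a group mean of at least 6 there were 226 genes, 2 of them higher by at least 1, and with at least 8 there were 91, with 0 higher at either size. With single arrays left out, the counts ranged from 0 to 3 higher and 0 to 6 lower, at a change of at least 1 from 0 to 2 higher and 0 to 5 lower, and the median log2 fold change of the Zfp members from -0.20 to 0.00339, the last without differentiating replicate 1. The counts were 0 when replicate 2 or 3 of the differentiating group, or replicate 3 of the undifferentiated group, was left out. The cause of these changes was not tested. Over 65 named genes and 14 alternatives, 834 values kept their side of the threshold, 22 lost and 54 gained a call, and no called value changed direction, while 22 genes changed sign somewhere without being called. With 3 arrays a group, a change of 1 could not be told from none for genes whose replicates spread like those of Zfp946.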

Other observations

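Outside the 151 genes, 2 Zfp genes below the level rule passed the test in limma, where 1.45% of all genes were lower and 0.797% higher. Zfp521, a regulator of neural, blood and mesenchymal progenitors, measured 5.69, 7.07 and 7.01 on differentiating replicates 1 to 3 and 4.09, 4.83 and 4.34 on the undifferentiated arrays. Every differentiating array was above every undifferentiated array, and the gene was higher by 2.17 (4.51-fold, adjusted p = 0.0887). Zfp870 was at 4.98, 5.11 and 5.10 against 5.91, 5.96 and 6.26, with no overlap, and fell by 0.98 (adjusted p = 0.0536). Over the 153 Zfp genes below the level, the median log2 fold change was 0.03, and replicate 1 was the lowest array of both groups for 65 of them. That order was found in 15.2% of all genes.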
